A study of Mus musculus with 8 samples.

Results

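The 10 genes described here encode the core transcription factors of mouse embryonic stem cells, namely Pou5f1, Nanog, Sox2, Klf4, Klf2, Klf5, Esrrb, Tfcp2l1, Stat3 and Tbx3. They were taken by name from the 21951 protein-coding genes of the GENCODE M21 annotation. Each gene was followed from 20 kb upstream of its record to 5 kb past its end, 0.574 Mb in all. In these intervals lay 129 of the 176687 peaks of 8 ChIP-seq libraries, a peak being a place where the fragments recovered with an antibody pile up. All libraries came from the E14Tg2a line of mouse embryonic stem cells at passages 37 to 40, with cells of 5 plates pooled for each chromatin preparation. Pluripotent cells (ESCs) were grown with leukemia inhibitory factor (LIF). Neuronal cells (NCs) were LIF-free monolayers that had received 1 µM retinoic acid (RA) for 48 h. Antibodies to FGFR1, RXR and Nur77 were used in both states, and in NCs also an antibody to H3.3, a histone variant. Only the group of FGFR1 in RA held 2 libraries, called replicates 1 and 2 here, of which the latter was titled as a further experiment. The other 6 groups had 1 library each, so no test between states was possible and none was run. Peak lists hold no RNA levels, and the labelled cell states were therefore not checked against marker genes.

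In ESCs, Pou5f1, Sox2 and Nanog occupy each other's regulatory regions and keep the pluripotent state, while the Klf factors, Esrrb, Tfcp2l1 and Tbx3 form a wider layer. LIF maintains a part of this layer through the signal transducer Stat3. RA moves the cells out of this state and the network is shut down. FGFR1 is a receptor of fibroblast growth factors that is also found in the nucleus (nFGFR1), RXR is the partner with which retinoic acid receptors bind DNA, and Nur77 is an orphan nuclear receptor that can pair with RXR.

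The sequences of the sites on which the account below turns are given first, so that each can be looked up beside its values. They are 5′ to 3′ on the strand of the gene, in build mm10. Of each site the longest stretch outside untranslated exons is shown, cut to 300 bases where it was longer. Shown are sites with peaks in both FGFR1 libraries from NCs or in at least 4 libraries, apart from a site of plain TG repeats upstream of Klf5 and the leading site of Nanog. The Pou5f1 site and the Sox2 start site were added after their values had been seen. In the Esrrb intron site the capitals mark the 9 letters AGNGGGCGC of the motif of the insulator protein CTCF (here on the other strand), in the Tfcp2l1 site the Klf word GGGNGTGGC (other strand), and in the Stat3 site the cAMP response element TGACGTCA. In the others the capitals mark the bases around the median summit, and the Tbx3 site has none because its summits lay in an untranslated exon.
Pou5f1 upstream site, chr17:35503919-35504074, plus strand: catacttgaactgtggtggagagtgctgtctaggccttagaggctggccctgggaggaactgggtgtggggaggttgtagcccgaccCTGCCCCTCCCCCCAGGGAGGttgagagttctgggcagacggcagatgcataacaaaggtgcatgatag
Sox2 start site, chr3:34649806-34649994, plus strand: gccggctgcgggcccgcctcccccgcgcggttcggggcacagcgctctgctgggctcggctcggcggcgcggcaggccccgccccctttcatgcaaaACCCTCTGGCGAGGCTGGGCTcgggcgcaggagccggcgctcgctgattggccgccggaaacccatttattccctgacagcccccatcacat
Sox2 coding site, chr3:34650875-34651164, plus strand: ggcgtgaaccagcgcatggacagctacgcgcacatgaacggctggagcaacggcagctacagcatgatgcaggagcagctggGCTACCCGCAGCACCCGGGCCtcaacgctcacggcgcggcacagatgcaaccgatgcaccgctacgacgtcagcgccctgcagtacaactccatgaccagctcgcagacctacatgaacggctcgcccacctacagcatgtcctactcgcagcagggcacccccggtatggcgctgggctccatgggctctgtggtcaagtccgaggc
Sox2 tract site, chr3:34634659-34634817, plus strand: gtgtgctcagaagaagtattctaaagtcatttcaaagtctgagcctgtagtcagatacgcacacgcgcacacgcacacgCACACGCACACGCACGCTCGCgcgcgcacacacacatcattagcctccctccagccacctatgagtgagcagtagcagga
Klf2 start site, chr8:72319078-72319318, plus strand: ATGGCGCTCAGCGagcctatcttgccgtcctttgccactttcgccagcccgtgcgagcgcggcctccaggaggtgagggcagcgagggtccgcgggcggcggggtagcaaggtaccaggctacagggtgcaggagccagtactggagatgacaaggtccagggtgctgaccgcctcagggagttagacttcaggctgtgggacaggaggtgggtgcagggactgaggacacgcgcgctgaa
Klf5 start site, chr14:99298391-99298690, plus strand: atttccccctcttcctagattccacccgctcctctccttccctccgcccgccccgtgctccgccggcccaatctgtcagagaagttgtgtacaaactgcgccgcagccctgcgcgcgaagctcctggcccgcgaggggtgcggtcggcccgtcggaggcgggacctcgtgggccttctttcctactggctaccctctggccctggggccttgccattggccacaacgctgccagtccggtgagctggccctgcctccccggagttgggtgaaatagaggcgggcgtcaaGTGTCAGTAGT
Esrrb intron site, chr12:86402798-86403006, plus strand: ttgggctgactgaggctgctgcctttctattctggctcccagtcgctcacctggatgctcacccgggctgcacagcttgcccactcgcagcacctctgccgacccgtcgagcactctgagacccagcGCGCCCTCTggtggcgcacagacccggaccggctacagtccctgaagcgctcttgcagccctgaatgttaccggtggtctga
Esrrb first coding exon site, chr12:86470159-86470385, plus strand: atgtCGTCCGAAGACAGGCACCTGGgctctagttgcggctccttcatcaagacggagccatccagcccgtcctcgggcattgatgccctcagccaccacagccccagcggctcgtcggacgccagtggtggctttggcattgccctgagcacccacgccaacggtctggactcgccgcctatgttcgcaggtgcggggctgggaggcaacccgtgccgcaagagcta
Tfcp2l1 start site, chr1:118627714-118627944, plus strand: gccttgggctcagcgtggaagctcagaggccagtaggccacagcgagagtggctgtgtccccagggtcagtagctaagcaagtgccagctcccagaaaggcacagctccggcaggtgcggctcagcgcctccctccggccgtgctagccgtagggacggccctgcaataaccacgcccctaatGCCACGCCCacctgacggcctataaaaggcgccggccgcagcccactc
Stat3 start site, chr11:100939541-100939840, minus strand: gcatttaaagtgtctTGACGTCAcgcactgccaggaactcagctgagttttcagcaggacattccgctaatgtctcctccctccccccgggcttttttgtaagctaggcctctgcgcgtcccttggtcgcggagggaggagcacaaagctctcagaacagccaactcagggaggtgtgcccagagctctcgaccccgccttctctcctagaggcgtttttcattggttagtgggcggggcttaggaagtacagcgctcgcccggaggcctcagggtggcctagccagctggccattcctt
Tbx3 start site, chr5:119670627-119670668, plus strand: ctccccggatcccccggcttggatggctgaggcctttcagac

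Peaks are given below by the deposited −log10 p of their summit, by the deposited fold, which is the ratio of the fragment pileup to the local background, and by the number of fragments at the summit recovered from these values. The background density, taken as a measure of depth, was lowest for H3.3, at 1.28 fragments per kb, and highest for RXR in LIF, at 7.1. At the genome-wide background a peak needed 4 to 6 fragments in 7 of the libraries and 8 in FGFR1 replicate 2. RXR in RA had 1.87 fragments per kb against 7.1 in LIF, so that its lists differ in depth as well as in state, and the part of depth in the changes of RXR was not tested. Within 1000 bp of the starts of the 10 genes, 92.5% to 100% of 31-base words occurred only a single time in the genome, and unmappable sequence therefore covered little of any start. Over whole intervals the share was lowest at Nanog (78.1%) and Pou5f1 (83.6%). Where no peak is reported, none was called at the depth of that library.

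nFGFR1 was at a promoter of 8 of the 10 genes in both libraries from NCs, which were Sox2, Klf4, Klf2, Klf5, Esrrb, Tfcp2l1, Stat3 and Tbx3, whereas Pou5f1 and Nanog had it in neither. A promoter peak is a peak with at least 20 bp within 1000 bp of a transcript start. Among all protein-coding genes, 39.5% had such a peak in both libraries. Replicates 1 and 2 each called 8 of the 10 genes, against 50.7% and 49.6% of all protein-coding genes. In LIF FGFR1 was at 2 of 10, Klf2 and Tfcp2l1, against a background of 17.0%. The 6 genes with FGFR1 in both libraries from NCs and none in LIF were Sox2, Klf4, Klf5, Esrrb, Stat3 and Tbx3, where 24.8% of all protein-coding genes had this pattern. None of the 10 had FGFR1 in LIF and in neither library from NCs, a pattern found in 0.305% of all genes. The count of 8 depended on the long list of replicate 1: with the 10634 strongest peaks of each library, 2 genes (Klf2 and Klf5) had FGFR1 at the promoter in replicate 1 and in both, against 18.1% and 15.1% of all genes.

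**Figure D1:**
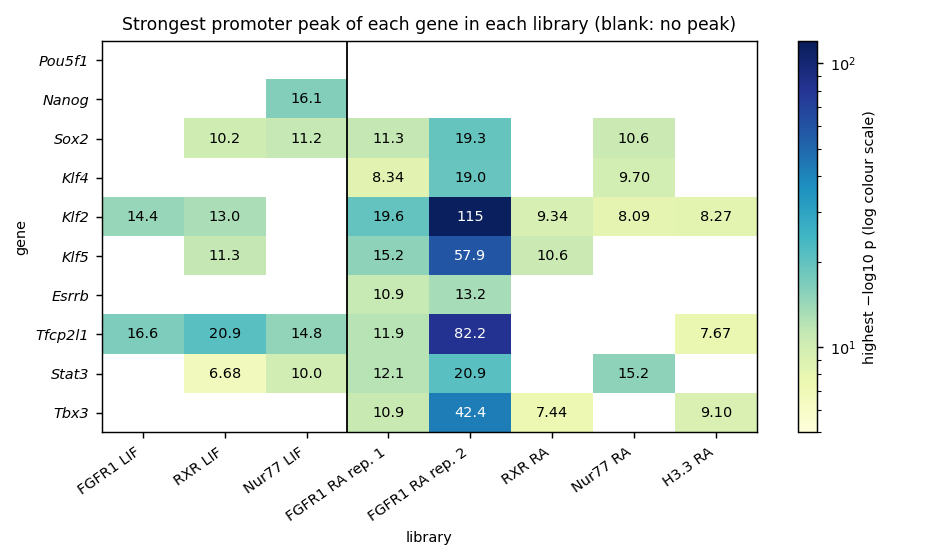
Highest −log10 p of the promoter peaks of each gene (rows) in each library (columns, LIF left of the line and RA right of it), blank where no promoter peak was called. Klf2 is filled in 7 of 8 libraries and Pou5f1 in none, and replicate 2 of FGFR1 holds the highest values.

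RXR was at the promoters of 5 of 10 in LIF (Sox2, Klf2, Klf5, Tfcp2l1 and Stat3), with 42.5% of all protein-coding genes bound, and of 3 in RA (Klf2, Klf5 and Tbx3), with 23.3% bound. Sox2, Tfcp2l1 and Stat3 had RXR in LIF and not in RA, as did 23.1% of all genes, and Tbx3 had it in RA and not in LIF, as did 3.94%. Nur77 was at 4 of 10 in LIF (Nanog, Sox2, Tfcp2l1 and Stat3) and at 4 in RA (Sox2, Klf4, Klf2 and Stat3), beside backgrounds of 25.5% and 25.8%. At the promoter, Nanog and Tfcp2l1 had Nur77 in LIF alone (11.4% of all genes), and Klf4 and Klf2 in RA alone (11.8%). The Nanog call was marginal, since its summit lay 1034 bp past the start and only the edge of the peak was within 1000 bp. Upstream of the Nanog promoter window Nur77 had a peak in both states, 1770 bp from the start in LIF and 1436 bp in RA. H3.3 was at 3 of 10 in RA, Klf2, Tfcp2l1 and Tbx3, against 15.5%. The shares of FGFR1 in NCs thus lay 29.3 and 30.4 percentage points above those of all genes in replicates 1 and 2. For the other libraries the distance was between 3.00 points (FGFR1 in LIF) and 14.5 points (Nur77 in LIF and H3.3), where 1 gene is worth 10 points.

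**Figure D2:**
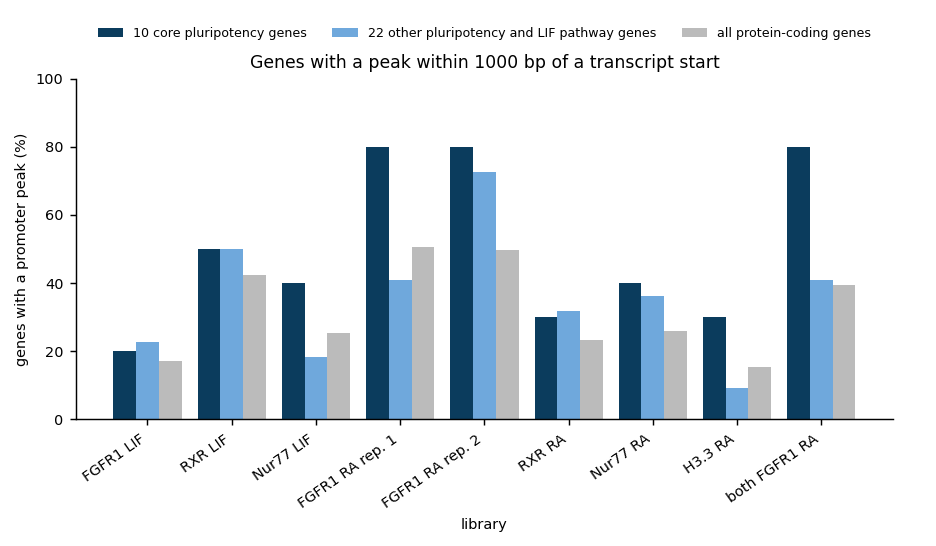
Percent of genes with a promoter peak in each library, and in both FGFR1 libraries from RA, for the 10 core genes, for 22 other pluripotency and LIF pathway genes and for all protein-coding genes. The dark bars reach 80% in both FGFR1 libraries from RA and 20% to 50% elsewhere.

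Pou5f1, which encodes the POU factor Oct4 and is required for pluripotency, is at chr17:35506018-35510772 on the plus strand. It had 3 peaks in its 29.8 kb interval, which with Klf4 was the fewest, and none in a promoter in any library. In FGFR1 replicate 2 a peak had its summit 2002 bp upstream of the start, made of 18 fragments, with 10.9 as its −log10 p and 5.59 as its fold. This position is within the window used for the distal enhancer of Pou5f1, 1500 to 2500 bp upstream, the element that drives the gene in ESCs. The other 7 libraries had no peak there, replicate 1 included, although all of its 31-base words were unique. The peak ranked 11557 among the 14082 of its list. The remaining 2 peaks came from Nur77 in LIF, 19129 bp upstream with a −log10 p of 6.92, and 7268 bp downstream in an intron of Tcf19 with 12.7. The latter was on an alternating purine and pyrimidine tract of 66 bp, a kind of simple repeat. No peak was called in the window of the proximal enhancer, 800 to 1500 bp upstream.

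Nanog, a homeobox gene of the naive state, is at chr6:122707489-122714633 on the plus strand. Its leading site, 1374 to 1791 bp upstream of the start, had peaks in 7 of the 8 libraries, more than any other site of the 10 genes. The −log10 p was 6.44 and 7.50 at the pair of FGFR1 peaks in LIF, 13.6 and 7.12 at those of RXR in LIF, and 11.7 for Nur77 in LIF. Among the RA libraries FGFR1 replicate 1 reached 23.6, H3.3 19.8, Nur77 16 and RXR 7.2. The site was thus present in both states and with all antibodies, and the missing library was FGFR1 replicate 2, the library whose median peak had the most fragments. The site is unique in the genome by 31-base words and holds no alternating tract of 20 bp. Of all FGFR1 replicate 1 peaks, 3.26% had this pattern of 7 libraries without replicate 2. Among those 1504 peaks 82.2% held a tract of at least 20 bp, against 21.1% of the whole list. A promoter peak was called in Nur77 LIF alone, 1034 bp downstream in an intron, at a −log10 p of 16.1 and with 8.67 as its fold. FGFR1 replicate 1 had a further peak in a coding exon 4139 bp downstream, with 6.81 and 6 fragments. The window from 4000 to 6000 bp upstream, where an enhancer of Nanog lies, held no peak.

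Sox2, the SRY-box partner of Oct4, is at chr3:34650405-34652461 on the plus strand, inside an intron of the noncoding gene Sox2ot. At the coding site, 551 to 590 bp past the start, peaks were called in 4 libraries, with −log10 p of 10.2 for RXR in LIF, 11.2 for Nur77 in LIF, 11.3 for FGFR1 replicate 1 and 10.6 for Nur77 in RA. These values are close, and rest on 11 to 14 fragments. The FGFR1 peak of replicate 2 stood apart from this site. Its summit was 492 bp upstream of the GENCODE start and 82 bp from the start that RefSeq gives (build GRCm38.p6), which is 410 bp further upstream. It had 29 fragments, a −log10 p of 19.3 and 7.45 as its fold. The replicates thus called the same promoter at different places, replicate 2 at the RefSeq start and replicate 1 in the coding sequence. Neither window of the Sox2 regulatory regions SRR1 and SRR2, 3000 to 5000 bp to either side of the start, held a peak. Further out, a site 15642 to 15667 bp upstream had peaks for RXR in LIF (15.4), FGFR1 replicate 1 (27.0), RXR in RA (11.3) and H3.3 (14.3), and held an alternating tract of 42 bp. Nur77 had a peak on another tract, 14453 bp upstream in LIF (12.8) and 14440 bp upstream in RA (11.6).

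Among the Klf genes, whose zinc finger products bind GC-rich promoters and can stand in for each other in ESCs, Klf2 was the most widely bound. Klf2 is at chr8:72319033-72321656 on the plus strand. Its start site had peaks in 6 libraries, with −log10 p of 14.4 for FGFR1 in LIF, 13.0 for RXR in LIF, 19.6 for FGFR1 replicate 1, 115 for replicate 2, 9.34 for RXR in RA and 8.09 for Nur77 in RA. H3.3 had its peak 837 bp past the start, in a coding exon, with 8.27. Nur77 in LIF was the only library without a Klf2 promoter peak. The peak of replicate 2, with 143 fragments and a fold of 14.1, ranked 119 of 14082 and had the highest −log10 p of the 129 peaks, although 4 others had a higher fold.

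Klf4, at chr4:55527143-55532466 on the minus strand, had no peak in LIF in its interval. In RA FGFR1 was 546 bp upstream of the start in replicate 1, with a −log10 p of 8.34 and 11 fragments, and 33 bp upstream in replicate 2, with 19.0 and 27 fragments, so that the peaks did not coincide. Nur77 in RA was 1320 bp downstream in an intron, 624 bp from another annotated start, with 9.70. RXR and H3.3 had no peak at Klf4.

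Klf5, at chr14:99298691-99315036 on the plus strand, had its strongest peak at the start in FGFR1 replicate 2, with a −log10 p of 57.9 and 63 fragments. Replicate 1 reached 15.2 and RXR in LIF 6.26 in peaks that each overlapped the peak of replicate 2 but not each other. At 310 to 583 bp past the start RXR had further peaks in LIF (11.3 and 8.14) and in RA (10.6), the last of these in an intron. Nur77 was not at the Klf5 promoter in either state. At the other end of the gene, 14405 to 14637 bp past the start, around the last coding exon, neighbouring peaks were called for RXR in LIF (11.9), Nur77 in LIF (12 and 12.1), FGFR1 replicate 1 (7.50 and 16) and H3.3 (9.47). A tract site 10387 to 10412 bp upstream had the highest values of RXR and Nur77 from LIF at Klf5, 26.8 and 25.8, and also FGFR1 replicate 1 (18.9) and Nur77 in RA (9.79). At that site 29% to 35% of the 31-base words were unique.

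**Figure D3:**
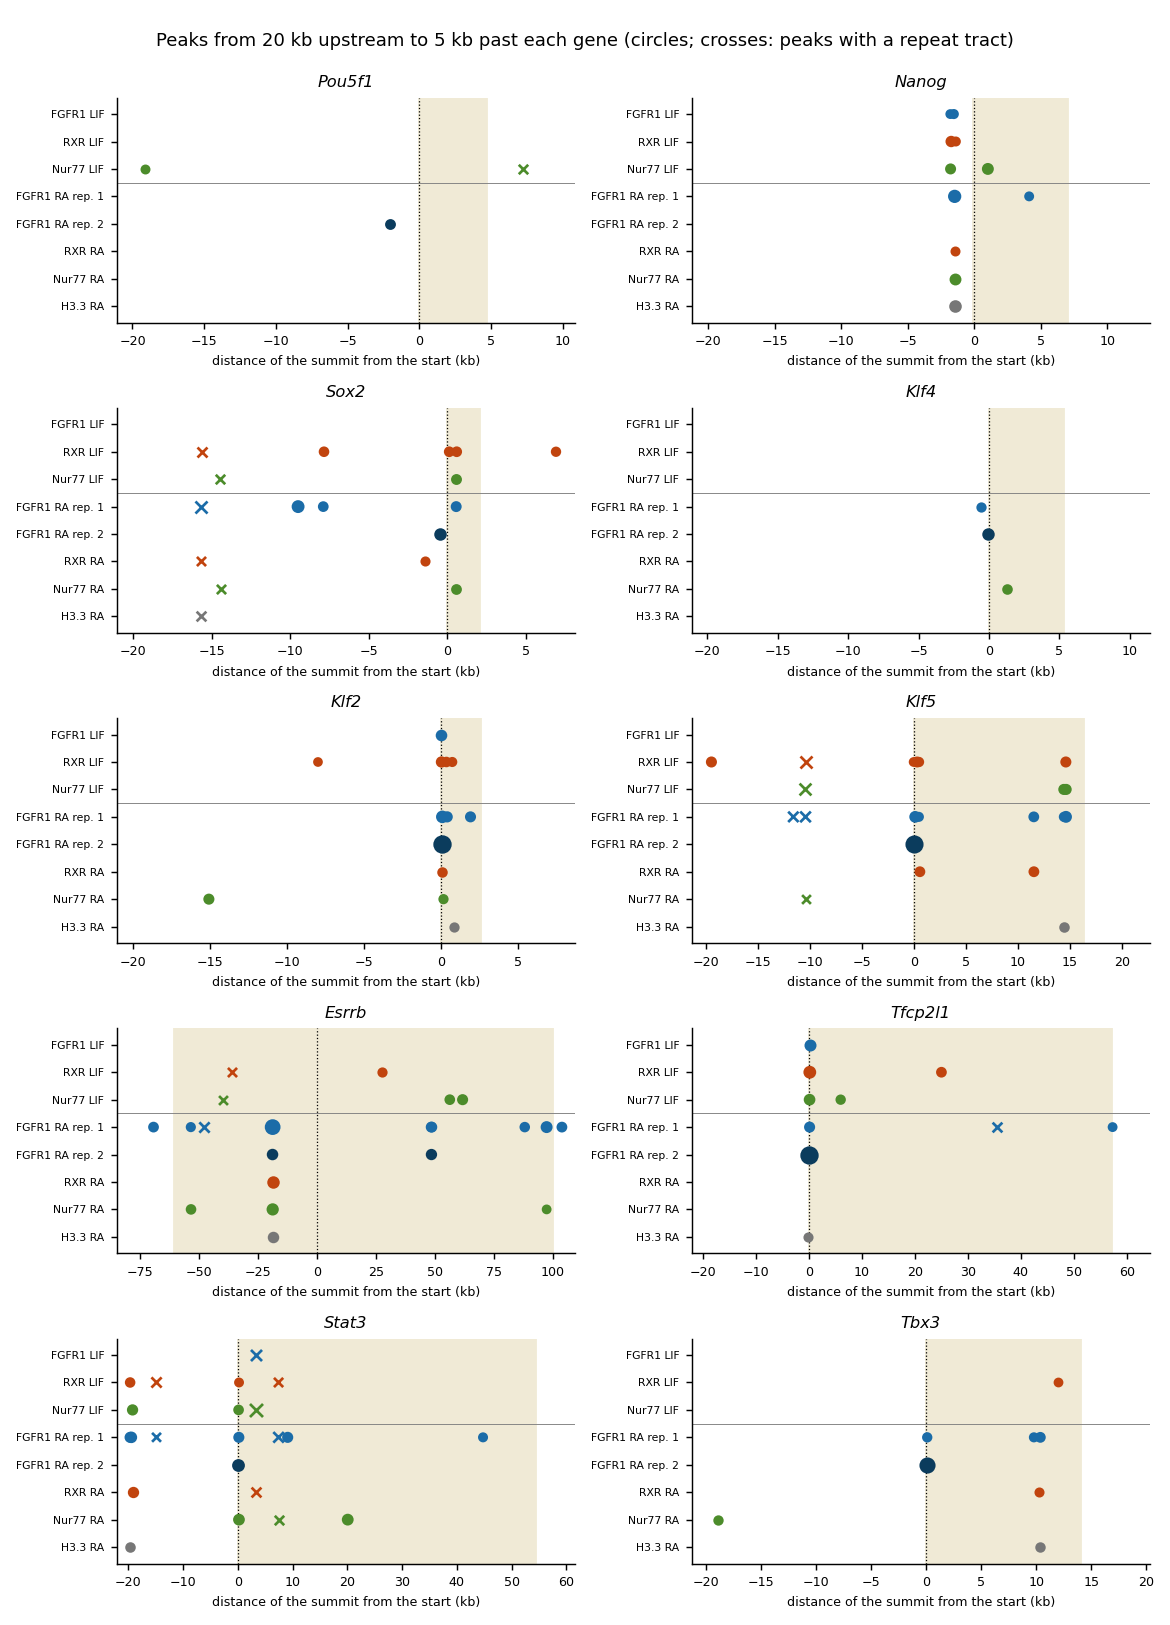
Summits of the 129 peaks by distance from the start of the principal coding transcript (kb, negative upstream), 8 libraries per gene, the shaded span being the gene record and the size of a symbol rising with −log10 p up to 60. Crosses are peaks with an alternating tract of at least 20 bp, which occur away from the starts, and the column of 7 libraries upstream of Nanog and the column of 5 RA libraries upstream of the Esrrb start stand out.

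Esrrb, an orphan receptor of the estrogen-related family that can replace Nanog in part, is at chr12:86361117-86521628 on the plus strand and has 6 annotated transcripts, the principal of which (Esrrb-203) starts 60527 bp inside the record. At a site 18713 to 18780 bp upstream of this start, in an intron of a longer transcript, all 5 libraries from RA had a peak and none of the 3 from LIF did. FGFR1 reached a −log10 p of 39.6 in replicate 1 and 14.0 in replicate 2, RXR 19.1, Nur77 17.8 and H3.3 14.0, with 11 to 32 fragments. The fold was 17.8 in replicate 1 and between 7.15 and 10.9 in the other 4. For FGFR1 replicate 1, RXR in RA and Nur77 in RA these were the strongest peaks in the intervals of the 10 genes. The summits of 4 libraries lay between 18713 and 18729 bp upstream, and that of replicate 2 lay at 18780 bp. The same pattern, all 5 libraries from RA and none from LIF, was shown by 35 of the 46137 peaks of replicate 1 (0.0759%), of which 3, the Esrrb peak included, held the CTCF word AGNGGGCGC near the summit. The word was added after this sequence had been seen. It was held by 1.54% of the 844 replicate 1 peaks found in all 5 libraries from RA with or without LIF, and by 1.71% of the whole list. Another site in both FGFR1 libraries was the only promoter site of Esrrb. It lay 48423 to 48687 bp past the principal start, where 2 of the 5 coding transcripts have their first coding base, 42 bp past the nearest annotated start. Replicate 1 had a pair of peaks there, each with a −log10 p of 10.9, and replicate 2 a peak of 13.2. Counting only principal starts therefore leaves Esrrb without a promoter peak in any library.

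Tfcp2l1, a transcription factor downstream of LIF and Stat3, at chr1:118627945-118685168 on the plus strand, had all 3 factors at its start in LIF, with −log10 p of 20.9 (RXR), 16.6 (FGFR1) and 14.8 (Nur77). In RA FGFR1 was called in both libraries, with 11.9 in replicate 1 and 82.2 in replicate 2 (84 fragments, fold 18.3), and H3.3 had a peak 134 bp upstream of the start with 7.67. RXR and Nur77 had no peak at Tfcp2l1 in RA, at the start or anywhere in the interval. Of the 10 genes, Tfcp2l1 was thus the only one whose promoter had FGFR1, RXR and Nur77 in LIF and kept FGFR1 without RXR and Nur77 in RA. The share of all protein-coding genes with this combination was not computed. A promoter peak in LIF and not in RA was found at 23.1% of them for RXR and at 11.4% for Nur77. Both rest on 1 library per state. The summits of FGFR1, RXR and Nur77 lay 28 to 133 bp past the start. The FGFR1 peaks and the Nur77 peak, 4 in all, held the Klf word GGGNGTGGC within 50 bp of the summit, in a copy past the start and not in the copy shown above.

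**Figure D4:**
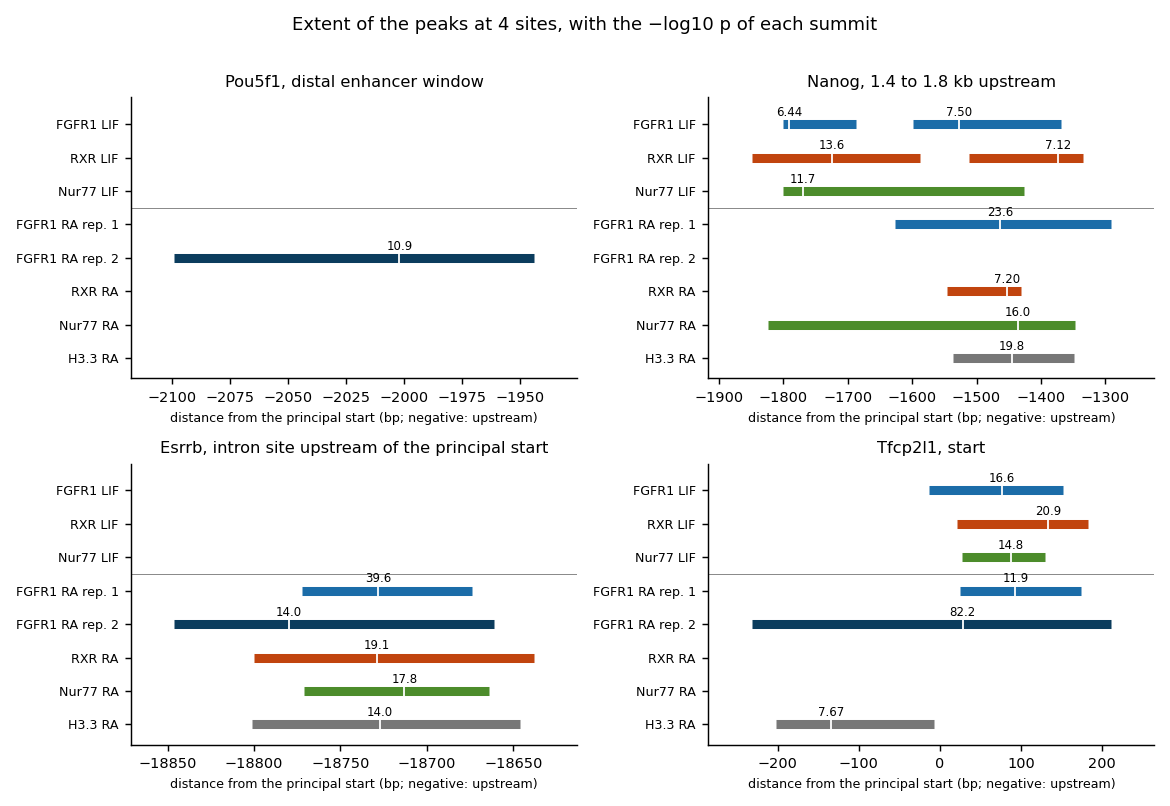
Extent of each peak (bars), its summit (white tick) and the −log10 p of the summit at 4 sites, by distance from the principal start in bp, with LIF libraries above the line and RA libraries below it. Pou5f1 has a single peak in FGFR1 replicate 2, Nanog peaks in 7 libraries, Esrrb peaks in the 5 RA libraries alone, and Tfcp2l1 peaks of all 3 factors in LIF but only of FGFR1 and H3.3 in RA.

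Stat3, the transducer of the LIF signal, at chr11:100885098-100939540 on the minus strand, had peaks at its start in 5 libraries: RXR in LIF (6.68), Nur77 in LIF (10.0), FGFR1 replicate 1 (12.1), FGFR1 replicate 2 (20.9) and Nur77 in RA (15.2). FGFR1 in LIF, RXR in RA and H3.3 were not called there. The peak of replicate 2 was 658 bp wide and extended upstream of the start over the sequence shown above with the cAMP response element. Its summit lay 97 bp past the start, and the element was not within 50 bp of it. The peaks of the other libraries at this site did not reach the sequence shown. With 8 of 22 peaks on alternating tracts Stat3 had the most such peaks of the 10 genes. Among these was the highest Nur77 value in the intervals, 33.2 in LIF, 3333 bp past the start, where FGFR1 in LIF (21.1) and RXR in RA (14.6) were also called. Upstream, in a coding exon of the neighbour Cavin1, lay separate sites close to each other. The site 19119 to 19429 bp upstream had peaks for Nur77 in LIF, FGFR1 replicate 1 and RXR in RA. The site 19646 to 19662 bp upstream had peaks for RXR in LIF, FGFR1 replicate 1 and H3.3. The RXR peaks from LIF and RA did not overlap.

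Tbx3, a T-box factor of the naive network, at chr5:119670669-119684724 on the plus strand, had FGFR1 at its start in RA alone, with a −log10 p of 8.49 and 9 fragments in replicate 1 and of 42.4 and 54 fragments in replicate 2. A site 10302 to 10388 bp past the start, in a coding exon and within 1000 bp of an internal transcript start, had FGFR1 replicate 1 (10.9), RXR in RA (7.44) and H3.3 (9.10). In LIF the interval held a single peak, of RXR, 12038 bp past the start with 6.30.

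Ordered by the highest promoter −log10 p in FGFR1 replicate 2, the genes ran from Klf2 (115) through Tfcp2l1 (82.2), Klf5 (57.9), Tbx3 (42.4), Stat3 (20.9), Sox2 (19.3) and Klf4 (19.0) to Esrrb (13.2). In replicate 1 the order was Klf2 (19.6), Klf5 (15.2), Stat3 (12.1), Tfcp2l1 (11.9), Sox2 (11.3), Esrrb (10.9), Tbx3 (10.9) and Klf4 (8.34). Klf2 led in both, and the 5 genes from Stat3 to Tbx3 in replicate 1 lay within 10.9 to 12.1 and cannot be ordered. Over these 8 genes, Spearman's rho between the libraries was 0.714 and Pearson's r 0.814, as a description of points that share the antibody and the cell line. The paired values did not all come from the same place. At Tbx3 the value of replicate 1 was from a peak 10388 bp past the start, and the replicate 1 peak at the start had 8.49. At Sox2 and Klf4 the promoter peaks of the replicates did not overlap. Among the members' own peaks, 7 of the 10 of replicate 2 shared at least 1 bp with a peak of replicate 1 (95% Clopper-Pearson interval of the share 34.8% to 93.3%, counting error only), against 58.4% of its whole list. In the other direction it was 8 of 39 (20.5%, 9.30% to 36.5%), against 20.6%. The 3 peaks of replicate 2 without a match were those at Pou5f1, Sox2 and Klf4.

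In both states together the 129 peaks formed 65 sites, of which 38 were found in a single library, 20 in LIF and RA, 16 only in LIF libraries and 29 only in RA libraries. In LIF the intervals held 5 FGFR1 peaks, 26 of RXR and 17 of Nur77. In RA they held 39 and 10 of FGFR1 in replicates 1 and 2, 10 of RXR, 14 of Nur77 and 8 of H3.3. Peaks were 1.18 to 2.15 times as dense per Mb as over the intervals of all protein-coding genes. Of the LIF peaks, 15.4% of RXR (4 of 26, 4.36% to 34.9%) and 29.4% of Nur77 (5 of 17, 10.3% to 56.0%) were met by a peak of that factor in RA, against 25.5% and 35.5% of the whole lists. For FGFR1 the share was 50% ± 14.1 (SD, n = 2 RA libraries), with 3 of 5 found in replicate 1 and 2 of 5 in replicate 2, against 59.0% and 27.5% of the whole list. The intervals of RXR and Nur77 are wide and include the values of the whole lists. The sites with RXR in both states were the Klf2 start, the Klf5 start region, the Nanog upstream site and the Sox2 tract site. Those with Nur77 in both were the Nanog upstream site, the Sox2 coding site, the Stat3 start and the tract sites of Klf5 and Sox2.

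By position, 48 of the 129 peaks were in promoters of the 10 genes (37.2%), and by the annotation of the gene itself 28 summits lay in coding exons, 17 in untranslated exons, 34 in introns and 49 outside the gene. Alternating tracts of at least 20 bp were held by 24 peaks (18.6%) and by none of the 48 in promoters. No peak of FGFR1 replicate 2 in the intervals had a tract, and 1.26% of its whole list did, against 21.1% to 51.7% in the other 7. Leaving out peaks with a tract changed none of the promoter counts above.

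The promoters of the 10 genes differed in CpG content, and so did the calls. Pou5f1 and Nanog had 30 and 18 CpG dinucleotides within 500 bp of the start, below the median of 41 of all protein-coding genes. The remaining 8 had 52 to 115, from Tfcp2l1 to Klf4. CpG was counted at a single start per gene, whereas a promoter peak could lie at any start. This was the principal start for the 10 genes and the start of the gene record for the others. The only promoter site of Esrrb lay at another start, where CpG was not counted. Among all genes, FGFR1 was at the promoter in both NC libraries for 4.76%, 20.3%, 60.9% and 71.9%, from the lowest to the highest of 4 equal classes by CpG count. Pou5f1 and Nanog are in the second class, Esrrb, Tfcp2l1 and Stat3 in the third, and Sox2, Klf4, Klf2, Klf5 and Tbx3 in the highest. The same rise with CpG was seen in each of the 8 libraries, H3.3 included, from 2.48% to 30.6%. Its part in the count of 8 of 10 was not tested. CpG content did not order the 8 bound genes, since Klf4, with 115, had promoter peaks in 3 libraries and Tfcp2l1, with 52, in 6.

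**Figure D5:**
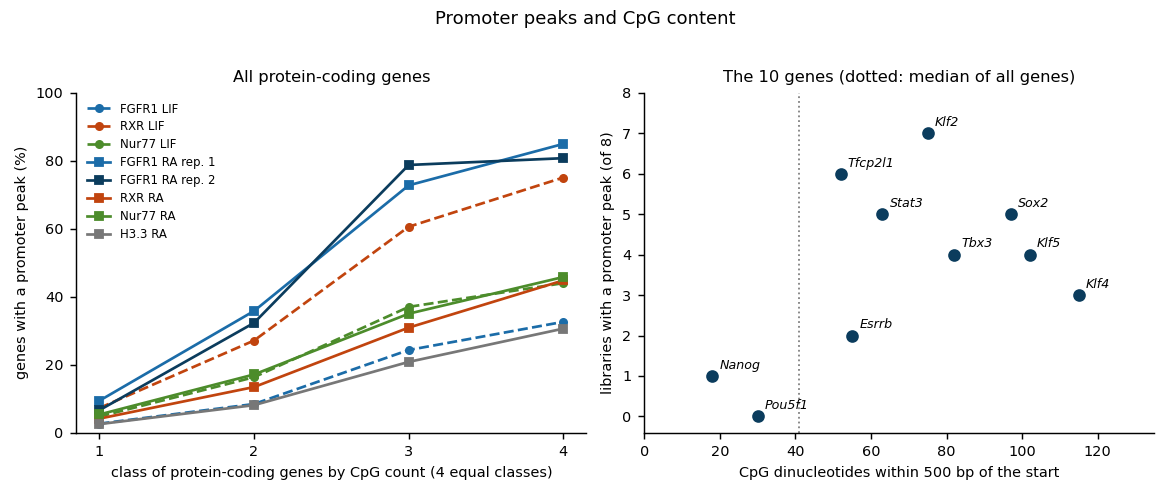
Left, percent of all protein-coding genes with a promoter peak in each library, by class of the CpG count (4 classes of equal size) within 500 bp of the start (dashed lines LIF, solid lines RA). Right, CpG count at the principal start of each of the 10 genes against its number of libraries with a promoter peak at any start, Pou5f1 and Nanog being left of the dotted median of 41.

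Of 22 other genes of naive pluripotency and LIF signalling, 9 had FGFR1 at the promoter in both NC libraries, close to the 39.5% of all genes: Fgf4, Lin28a, Fbxo15, Zfp281, Lifr, Il6st, Jak1, Klf9 and Gbx2. Replicate 2 called 16 of the 22 (72.7%), against 49.6% of all genes, and replicate 1 called 9 (40.9%), against 50.7%. The pattern of FGFR1 in both NC libraries and not in LIF was shown by 5 of the 22, Lin28a, Fbxo15, Lifr, Il6st and Jak1, which is 22.7% against the 24.8% of all genes. Among these are parts of the LIF receptor pathway, with −log10 p of 16.3 and 14.6 at Lifr, 11.3 and 26.1 at its partner Il6st, and 17.5 and 53.8 at the kinase Jak1 in replicates 1 and 2. Socs3, the feedback inhibitor that Stat3 induces, had FGFR1 in replicate 2 alone (39.9). In LIF 5 of the 22 had FGFR1, Nr0b1, Fgf4, Zfp281, Klf9 and Gbx2, against 17.0% of all genes, and Nr0b1 was the only one of them without it in either NC library. Prdm14, Nr5a2, Dppa3 and Gdf3 had no promoter peak in any library, as Pou5f1 had none.

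Sequence words of factors that act on these genes were uncommon at summits, both among the 129 peaks and in the whole lists. Within 50 bp of the summit, on either strand, the core word AGGTCA of nuclear receptor sites was found at 1 peak (Nur77 in LIF, upstream of Stat3), where 4.38% of all peaks of the 8 lists had it. The Nur77 site AAAGGTCA, the Esrrb site TCAAGGTCA, the octamer ATGCAAAT, the STAT word TTCCNGGAA and the E-box CACGTG were found at none, against 0.128%, 0.0821%, 0.157%, 0.0866% and 6.19% of all peaks. AAAGGTCA and TCAAGGTCA contain AGGTCA. TGACGTCA was found at 1 peak, that of RXR in LIF 6909 bp past the Sox2 start and not at Stat3, against 0.620%, and the Klf word GGGNGTGGC at 4, all at the Tfcp2l1 start, against 1.5%. The CTCF word AGNGGGCGC was found at 5 peaks, against 1.24%. Of these, 4 were at the Esrrb intron site from which the word was taken, and the fifth was a peak of FGFR1 replicate 1 alone, 9504 bp upstream of Sox2, with a −log10 p of 21.3 and 17 fragments. A word that is absent here is only absent from these windows.

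By presence or absence over the 8 libraries, 34.5% of all other protein-coding genes shared the empty pattern of Pou5f1. The pattern of Klf2, 7 libraries without Nur77 in LIF, was shared by 148 genes, that of Tfcp2l1 by 63 and that of Tbx3 by 18. Klf4 shared its pattern with 162 genes and Klf5 with 284, while Sox2 and Stat3 had the same pattern, which each shared with 237 genes, the other among them. The genes nearest in level, by the Euclidean distance of log2(1 + highest −log10 p) over 8 libraries, were Slc16a1 and Gm49373 for Klf2 (0.672 and 0.930), AU041133 and Nfrkb for Tfcp2l1 (0.910 and 1.2), and Fkbp2 and Mtfr1 for Tbx3 (0.497 and 0.661). For Sox2 they were Casp8 and Aarsd1 (0.350 and 0.385), for Klf4 Mtmr14 and Psmb10 (0.172 and 0.214), for Klf5 Mgat4a and Trappc6b (0.222 and 0.393), and for Stat3 Axin1 and Irak1bp1 (0.411 and 0.439).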

How the data were processed

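Peak lists of 8 ChIP-seq libraries were used. Per the labels and the study's methods, the authors aligned reads to mm10 with Bowtie 1.0, kept uniquely aligned reads, and ran MACS2 on every library separately at a p limit of 1e-05, with no control named and no pooling. The deposited fold is the ratio of pileup to local background, the deposited −log10 p and −log10 q belong to the summit, and the deposited score was not used for any result. The number of fragments at a summit was solved from its deposited fold and −log10 p, using the Poisson tail of MACS2, and 99.9% to 100% of peaks per library were solved within 0.002. This step was tested on simulated data. The RXR and Nur77 groups had 1 library per state and no p-value was computed.

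Genes, starts and exons were those of GENCODE M21 on GRCm38, the assembly of mm10, and RefSeq starts came from its promoter table, which held no Klf5 or Tbx3 entry. A promoter peak has at least 20 bp within 1000 bp of any of the 101652 transcript starts of protein-coding genes. Distances run from the start of the principal coding transcript to the summit. Peaks of separate lists match at 1 bp or more. A site is a chain of such overlapping peaks, so that the peaks of a site need not all overlap each other. Intervals on shares are exact Clopper-Pearson at 95% and cover counting error only. The sequence of the Nanog site is not reported here. Enhancer windows were set from general knowledge and are wider than the elements. Computation used Python 3.11.15, pandas 2.3.3 and scipy 1.17.1. The 10 genes, the list of 22 and the words were chosen with earlier results of these data known, and the study discussed several of these genes because of their binding in these libraries, so their counts are not independent evidence. Named genes were the 10 and, for those with promoter peaks in at least 3 libraries, the 2 nearest in level among genes of the same pattern. Other thresholds, promoter widths and matching rules were tried as alternatives.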

Additional observations from a re-analysis of the deposited data

Results flagged for a closer look

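Between LIF and RA the number of the 10 genes with an FGFR1 promoter peak rose by 6 in each of the 2 libraries from NCs, while for RXR it changed by -2, from 5 to 3. The number of peaks in the intervals of the 10 genes was higher for FGFR1 by 34 in replicate 1 and by 5 in replicate 2, while it changed by -16 for RXR and by -3 for Nur77. These were singled out because the FGFR1 libraries moved one way and the other factor the opposite way. Among all protein-coding genes, the share with an FGFR1 promoter peak went from 17.0% to 50.7% and 49.6% in replicates 1 and 2. For RXR that share went from 42.5% to 23.3%. The whole lists went from 11378 to 46137 and 14082 peaks for FGFR1, from 30586 to 15224 for RXR and from 22651 to 25995 for Nur77. With the 10634 strongest peaks of each library, 2 genes had FGFR1 in LIF, 2 in replicate 1 and 8 in replicate 2. Replicate 1 thus showed no rise, and RXR went from 2 genes to 1. At this cut 18.1% of all genes had a promoter peak in replicate 1. For LIF, replicate 2 and RXR the share of all genes at this cut was not computed. The interval peaks went from 4 to 12 and 9 for FGFR1, from 8 to 6 for RXR and from 12 to 6 for Nur77. The difference between factors was not tested, since RXR and Nur77 had 1 library per state. The background density fell from 7.1 to 1.87 fragments per kb for RXR and from 4.98 to 3.82 for Nur77, and rose from 2.71 to 4.17 and 6.78 for FGFR1, and the part of depth in these changes was not tested.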

How the results depend on the processing

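Of 159 values recomputed with other settings, 132 stayed within 1.5 times of the reported count, within the interval of the share or within the SD, and 27 moved beyond it. The only signed value among them, the difference of the FGFR1 promoter counts between RA and LIF, stayed positive. With the 10634 strongest peaks of each library, the number of the 10 genes with a promoter peak was 2 for RXR in LIF, 2 for FGFR1 replicate 1, 1 for RXR in RA, 1 for Nur77 in RA and 2 for FGFR1 in both RA libraries, and the FGFR1 RA mean was 3 above LIF in place of 6. The intervals then held 8 peaks of RXR in LIF, 12 of FGFR1 replicate 1, 6 of RXR in RA and 6 of Nur77 in RA, replicate 1 held a match for 33.3% of the replicate 2 peaks, and the share of Nur77 LIF peaks found in RA was 8.33%. These lists hold fewer peaks by construction. In them 18.1% of all genes had a promoter peak in FGFR1 replicate 1 and 15.1% in both RA libraries. For the other libraries at this cut, and for the settings below, the share of all genes was not computed. At a −log10 p of at least 10 the promoter counts were 1 for RXR in RA, 2 for Nur77 in RA and 0 for H3.3, the FGFR1 RA mean was 5.50 above LIF, the intervals held 3 peaks of FGFR1 in LIF, 14 of RXR in LIF, 6 of RXR in RA, 8 of Nur77 in RA and 3 of H3.3, and the FGFR1 share of LIF peaks found in RA was 66.7%. With promoters of 500 bp, 2 genes had Nur77 in RA and 1 had H3.3, and the FGFR1 RA mean was 5 above LIF. From 5000 bp upstream, 5 genes had RXR in RA. With principal starts only, the FGFR1 RA mean was 5 above LIF. Without either FGFR1 RA replicate the difference from LIF stayed at 6, and the FGFR1 share ranged from 40.0% to 60%. A −log10 q of at least 2, an overlap of 1 bp with the region, a shorter interval, other matching rules and leaving out tracts moved no value beyond these limits. The CTCF word and the Pou5f1 and Sox2 start sites were chosen after seeing the data. No paired analysis was possible because the groups share only replicate number 1 and no test was run.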
